A study of Mus musculus with 13 samples.

Results

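Open chromatin was compared between K27M and control oligodendrocyte progenitor cells (OPCs) from the brainstem, in 6 of the 13 ATAC-seq libraries of the series. They were chosen by their titles as all libraries of brainstem origin, 3 labelled K27M (cultures 41, 59 and 61) and 3 labelled Control (cultures 51, 59 and 61). The other 7 libraries came from dorsal telencephalon, labelled cortex, with 4 of K27M and 3 of control genotype.

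OPCs were immunopanned on PDGFRa from brainstems pooled by genotype within AMGFAP-Cre;K27M litters at postnatal day 5 to 7. They were grown undifferentiated in a proliferation medium with forskolin, CNTF, neurotrophin-3 and PDGF, snap frozen and assayed by Omni-ATAC. In K27M cells, hGFAP-Cre had removed a loxP-STOP-loxP cassette in neural progenitors, so that the mutant histone was made from 1 endogenous H3-3a allele. Control littermates lacked Cre and kept the cassette, which leaves them 1 expressed H3-3a allele, so both genotypes carried the targeted allele and only the K27M cells carried Cre. The cultures are pools of animals, and the p-values below measure only the spread among these pools.

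OPCs are the dividing cells that give rise to myelinating oligodendrocytes, and they depend on PDGF signalling through PDGFRa and on the transcription factors Olig2 and Sox10. H3.3 K27M is a mutant histone found in diffuse midline glioma that inhibits PRC2, the complex that places the repressive mark H3K27me3. In ATAC-seq the Tn5 transposase cuts accessible DNA, and a peak marks a stretch with more cuts than its surroundings, such as an active promoter or enhancer.

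The 6 peak lists held 27768 to 52466 peaks, with median widths of 690 to 800 bp and median fold enrichments over local background of 2.84 to 3.08. The lists hold no read counts, so depth is unknown, and a missing peak means only that none was called in that library. Each genotype had 1 long list, 48487 peaks in K27M culture 41 and 52466 in control culture 61, and every comparison was therefore repeated with each list reduced to the most significant peaks, as many as in the shortest list of the series ("lists of equal length"). Control culture 51 had 0 peaks on chromosome Y, while the other 5 libraries had 22 to 69. Of 16 OPC genes, 15 or 16 had a promoter peak in every library, and the promoters of Olig1, Olig2, Sox10, Nkx2-2 and Pdgfra were open in all 6. The exception was Cspg4, which encodes the NG2 proteoglycan and had a promoter peak in 2 of the 6 libraries, K27M culture 41 and control culture 61. Markers of other cells were also partly open: 3 to 5 of 6 astrocyte markers, 1 or 2 of 6 microglial markers, 0 to 2 of 6 endothelial markers and 4 to 6 of 6 neuronal markers, with the neuronal count at 6, 6 and 4 in K27M and 5, 4 and 4 in control. The part of such cells in the results below was not tested. Among these markers, Aif1, Cx3cr1, Csf1r, Itgam, Pecam1, Cdh5, Tek, Tie1 and Gjb6 had no promoter peak in any of the 6. H3f3a, the gene that carries the mutation (chr1:180800832-180813943), was open at the promoter in every library. The percentile of fold is the rank of a peak within the list of its own library, with 100 the highest. H3f3a lay at percentiles 81.4, 66.7 and 71.0 of the K27M lists and at percentiles 74.6, 70.7 and 63.4 of the control lists, which overlapped.

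In the deposited lists, the number of open promoters and distal regions differed less between the genotypes than among the libraries of each. K27M libraries had 19135, 17050 and 15675 genes with a promoter peak, and control libraries 16339, 16069 and 19360. A promoter here ran from 2 kb before to 1 kb after any annotated start. The means were 17287 ± 1742 and 17256 ± 1827 genes (SD, n = 3 each), a difference of 30.7 (two-sided exact permutation test, p = 1). In the matched cultures 59 and 61 alone, which leave out the long K27M list and keep the long control one, the difference was -1352 genes. Distal peaks, those touching no promoter, numbered 21609 ± 8482 in K27M and 23228 ± 9770 in control (exact permutation p = 0.7, n = 3 each). They made up 57.6% ± 5.92 and 59.1% ± 5.81 of all peaks (exact permutation p = 0.7, n = 3 each). In lists of equal length the counts of promoters were 12610 ± 92.0 and 12367 ± 319, with exact permutation p = 0.2. Distal peaks there numbered 6858 ± 49.0 and 7059 ± 282 (exact permutation p = 0.3, n = 3 each). These differences, of 243 and -201, exceeded the SD of the K27M libraries in size but not that of the control libraries. With 3 libraries against 3 the smallest p that this test can give is 0.1.

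**Figure D1:**
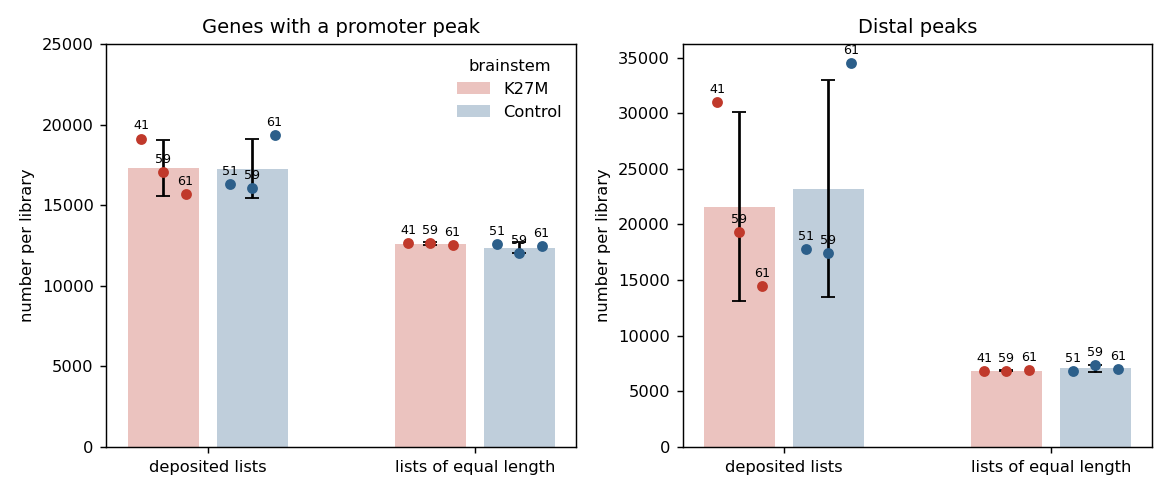
Number per library of genes with a promoter peak (left) and of distal peaks (right), in the deposited lists and in lists of equal length. Bars are means and error bars SD over 3 libraries, points are libraries with their culture number, and the 2 genotypes overlap in both panels.

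Promoters that were open in one genotype and not in the other were few. Of 21305 genes with a promoter peak in any of the 6 libraries, 14016 had one in all 6. A peak in every K27M and no control library was found for 14 genes (0.0657% of those detected), and the reverse for 12 genes (0.0563%). In lists of equal length these numbers were 59 (0.386% of 15284) and 31 (0.203%). Each such gene on its own reaches at best the exact p of 0.1, so none is a significant difference. Without control culture 61, 209 genes were on the K27M side, and without K27M culture 41, 119 were on the control side. Fewer libraries have to match when one is left out, and the part of list length was not tested. In the matched cultures 59 and 61 alone, without the long K27M list and with the long control one, the counts were 27 and 383. Of the 59 genes of the equal-length K27M side, 45 had a peak in all 3 control libraries of the deposited lists, and of the 31 on the control side 20 had one in all 3 K27M libraries.

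**Figure D2:**
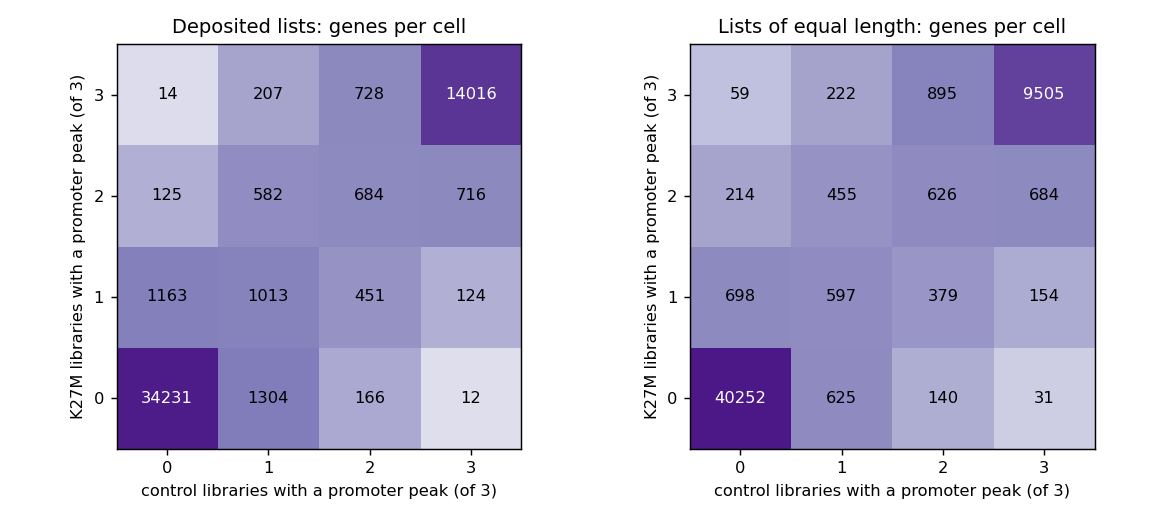
Genes by the number of K27M (vertical) and control (horizontal) brainstem libraries with a promoter peak, from 0 to 3, in deposited lists (left) and lists of equal length (right). Shading is log10 of the count, and the corners of complete separation hold 14 and 12 genes (left) and 59 and 31 (right).

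Prm1, which encodes the sperm nuclear protein protamine 1 (chr16:10796326-10805839), had the strongest peak on the K27M side. Its fold was 4.75, 5.61 and 4.63 in the K27M libraries, at percentiles 95.0, 99.9 and 99.0, and no control library had a peak. All 4 K27M libraries of telencephalon and none of the 3 controls had it too. The neighbouring Prm2 shares this peak. According to the study's methods the Cre transgene contains Prm1 sequence, and a peak from the transgene and one at the gene itself cannot be told apart in these lists.

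The other protein-coding genes of the K27M side had weaker peaks. Copz2, a subunit of the coat of transport vesicles, lay at percentiles 36.3, 35.1 and 24.1. Trappc4, a subunit of a vesicle tethering complex, lay at percentiles 24.2, 31.7 and 18.9. Tmem40 lay at percentiles 20.99, 45.2 and 7.4, and Kcnc4, a voltage-gated potassium channel, at percentiles 1.3, 7.8 and 23.3. None of these 4 promoters was in the lists of equal length in any library. On the control side Rasl2-9, a Ran-like GTPase gene without introns, was the one protein-coding gene with an assigned name, at percentiles 53.2, 59.3 and 74.1 of the control lists, and it too was in none of the lists of equal length. The remaining 11 genes of the control side were non-coding or predicted genes and 1 coding gene known only by a clone name. As the named control-side promoter, 200 bases just upstream of Rasl2-9 (chr7:5125951-5126150, mm10, plus strand shown, gene on the minus strand) are given here. They have 64.5% G and C and none of the motifs described below.
Rasl2-9: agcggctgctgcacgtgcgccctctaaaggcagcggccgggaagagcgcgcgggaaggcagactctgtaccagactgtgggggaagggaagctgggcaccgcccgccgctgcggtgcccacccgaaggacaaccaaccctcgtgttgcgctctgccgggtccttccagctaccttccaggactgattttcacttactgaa

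In telencephalon Copz2 was open in 2 of 4 K27M and 0 of 3 control libraries, Trappc4 and Kcnc4 each in 3 of 4 and 2 of 3, and Tmem40 in 1 of 4 and 1 of 3. Rasl2-9 was open in 2 of 4 K27M and 2 of 3 control libraries of telencephalon. The differences between regions were not tested.

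In lists of equal length a promoter drops out when its peak is less significant than the rest, so these genes differ in the rank of their peak among the others of a library. The 6 first named genes on the K27M side were Rab27b, a GTPase of vesicle secretion, the zinc finger gene Zfp518a, Fam184b, Uqcc1, an assembly factor of respiratory complex III, Lrrc2, and Grb10, an adaptor that restrains insulin and growth factor receptors. All 6 had a promoter peak in all 6 deposited lists. Grb10 lay at percentiles 80.0, 79.7 and 56.5 in K27M and 40.6, 32.3 and 57.6 in control, which overlap. On the control side the first were Fgfr1op, a centrosomal protein, BC030500, the synaptic vesicle transporter Svop, Hsd11b1, an enzyme that regenerates active glucocorticoid, the DNA helicase Recql5 and Sap30bp, which shares its promoter peak with Recql5. Fgfr1op lay at percentiles 55.9, 36.6 and 41.5 in the K27M deposited lists and at percentiles 84.0, 69.3 and 96.6 in control, without overlap. Hsd11b1 was open in 1 of 3 K27M and 3 of 3 control deposited lists.

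Further genes of these equal-length sides were picked for their known roles after their values had been seen, and are given as values alone. Igf2bp3, a fetal RNA-binding protein that is silent in most adult tissues, was open in 3 K27M and 1 control deposited lists, at percentiles 50.3, 23.4 and 15.6 against 1.4 in control culture 61. Fgf15, an FGF of the embryonic brainstem and gut, was open in all 6, at percentiles 55.1, 46.0 and 46.0 in K27M and 16.2, 7.8 and 42.4 in control. Piezo1, a mechanically gated ion channel, lay at percentiles 83.9, 46.9 and 33.7 against 12.4, 10.0 and 57.4. Nes, which encodes the progenitor filament nestin, had low fold in all 6, from percentile 0.3 to 19.1. On the control side, Nkx3-2, a homeobox gene of skeletal and foregut development, was open in 2 of 3 K27M lists (percentiles 38.0 and 9.1) and 3 of 3 control lists (percentiles 65.4, 47.9 and 62.1). Zeb1, a repressor of epithelial genes, lay at percentiles 60.8, 9.4 and 8.5 in K27M and 37.0, 44.2 and 73.5 in control.

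Less complete differences were counted as well, as genes open in at least 2 more libraries of one genotype. There were 346 such genes on the K27M side (1.62% of those detected) and 302 on the control side (1.42%), and in lists of equal length 495 (3.24%) and 325 (2.13%). Of 396 genes in 20 lists of cell type markers, pathways and patterning factors, 351 were open in some library and 0 separated the genotypes completely, in deposited or equal lists. Of these 351, 9 are on the K27M side of this looser count and 5 on the control side, to be read against the 1.62% and 1.42% of all genes.

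Hox and other patterning genes made up 5 of the 9, and with the LIM homeobox gene Lhx9 all 5 of the control side. Of 25 Hox genes open in some library, 4 and 1 were on the 2 sides. Of 33 other patterning genes these were 1 and 3, and of 11 LIM homeobox genes 0 and 1. Only 3, 12 and 2 genes of these lists were open in all 6, against 14016 of 21305 genes. A gene open in all 6 cannot enter this count. At equal list length 9 and 8 of 247 listed genes were on the 2 sides. On the K27M side the Hox list and the list of other patterning genes then held 1 each. On the control side the Hox and LIM homeobox lists held 1 each and the other patterning genes 2. En1, En2 and Pax2, homeodomain and paired-box factors that set up the midbrain and hindbrain, had a promoter peak in 1 of 3 K27M and 3 of 3 control libraries. For En2 (chr5:28165694-28172166) the K27M peak was in culture 41, at percentile 27.2, and the control peaks were at percentiles 25.4, 43.5 and 34.2. At equal list length, En2 was in 0 K27M and 2 control lists. En1 lay at percentile 7.3 in K27M culture 41 and at percentiles 2.4, 50.7 and 6.3 in control. Pax2 lay at percentile 9.9 in K27M culture 41 and at percentiles 21.1, 9.3 and 25.3 in control, and was in no list of equal length. Among K27M libraries all 3 genes were thus called only in culture 41, the longest K27M list. The part of list length was not tested. Otx2, a factor of forebrain and midbrain identity, went the other way, open in 3 K27M lists (percentiles 38.5, 29.5 and 25.3) and in 1 control list (percentile 7.3). In telencephalon Otx2 was open in 3 of 4 K27M and 2 of 3 control libraries, and En2 in 2 of 4 and 2 of 3. En2 and Vax2 are 2 of 4 genes that the study lists as known to respond to K27M, a list that is no independent evidence here. Vax2, a homeobox gene of the ventral eye and forebrain, was open in 2 K27M (percentiles 1.6 and 6.1) and 3 control libraries (percentiles 42.8, 12.7 and 62.9). The other 2 of that list were open in all 6 and overlapped, Bmi1, a Polycomb gene, at a mean difference of -1.7 percentile points, and Pbx3 at -5.4.

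Hox genes, which give hindbrain and spinal cord cells their position, differed gene by gene. Of 39, 25 were open in some library and 3 in all 6. K27M libraries had 24, 11 and 9 open Hox promoters and control libraries 11, 7 and 20, with the most in the 2 longest lists. Hoxb4, Hoxb7, Hoxc4 and Hoxd1 were open in 3 K27M libraries and 1 control, which was culture 61, the longest list. Hoxb2 was open in 1 K27M and 3 control libraries, at percentile 26.3 in K27M culture 41 and percentiles 5.3, 10.8 and 4.3 in control. Hoxa5 was open in all 6, at percentiles 40.2, 3.4 and 11.5 in K27M and 57.5, 62.6 and 57.6 in control. Every control value lay above every K27M value, and in lists of equal length Hoxa5 was in 1 K27M and 3 control lists. Hoxa2 was also open in all 6, and its percentiles overlapped. Hoxb2, Hoxb3, Hoxb4 and Hoxb7 had no promoter peak in any telencephalon library.

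**Figure D3:**
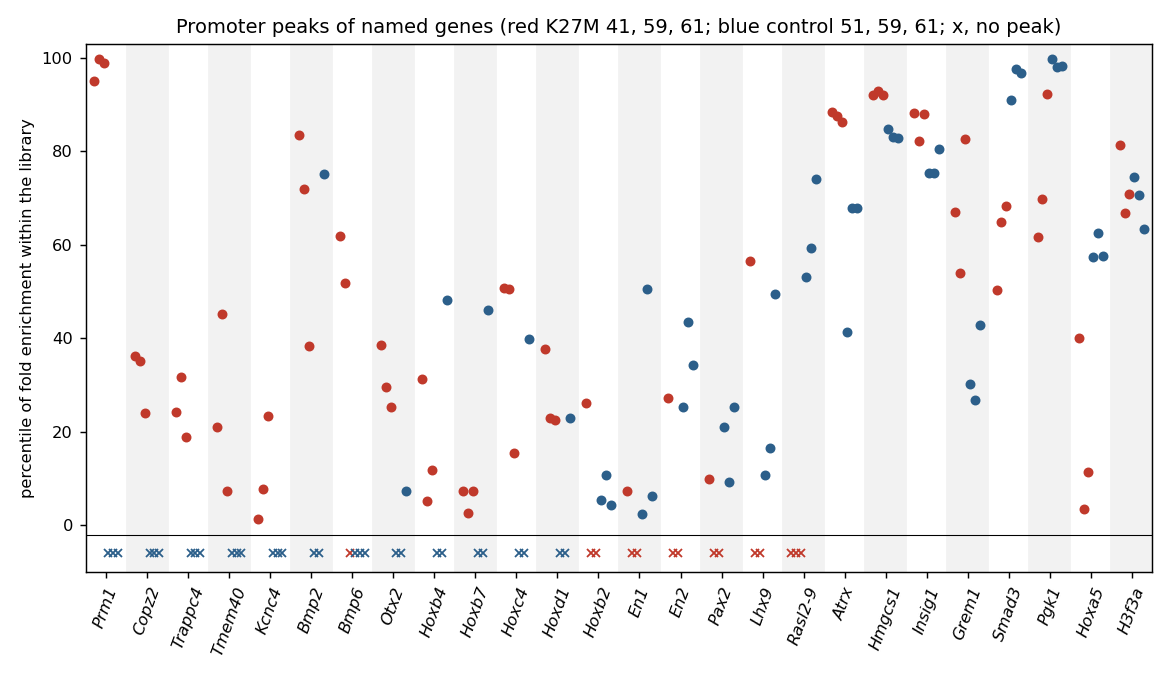
Percentile of fold enrichment of the promoter peak within its own library (vertical axis, 0 to 100) for named genes. Each point is 1 library, red for K27M cultures 41, 59 and 61 and blue for control cultures 51, 59 and 61 from left to right, and crosses below the line mark libraries without a peak. Prm1 is high in 3 K27M libraries alone, and Smad3, Pgk1 and Hoxa5 are higher in all 3 controls.

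Fold enrichment was then compared where all 6 libraries had a peak, as the percentile of fold within each list. The median percentile of these shared peaks was 78.9, 68.8 and 62.8 in K27M cultures 41, 59 and 61. It was 67.3, 64.5 and 78.5 in control cultures 51, 59 and 61, so it was highest in the long list of each genotype. Percentiles of the deposited lists are therefore not on the same scale in every library. Over 18780 merged peaks (peaks of the 6 libraries that touch, joined into one), 7257 of them distal, limma, a linear model with a spread shared across peaks, called 0 at an adjusted p under 0.05, 0% of those tested. The lowest adjusted p was 0.9999, and 340 peaks had an unadjusted p under 0.05. In the lists of equal length, limma called 0 of 10542 (0%), with 397 at an unadjusted p under 0.05 and a lowest adjusted p of 0.987. The median standard error of a difference was 13.5 percentile points, and 95% of peaks differed by between -22.9 and 23.7 points, so that small shifts could not be resolved with 3 libraries a side. The fold of a broad peak is an average over its whole length.

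Peaks whose 3 K27M percentiles all lay above the 3 control ones numbered 593 (3.16%), and 499 lay below (2.66%). For a single peak, complete order in either direction has an exact permutation p of 0.1. Such order can thus arise without any difference between the genotypes, and no peak or gene is called different by it. In the matched cultures 59 and 61 alone, where only 2 libraries a side have to order, 1327 lay above and 4653 below, which turned the balance. These cultures leave out the long K27M list and keep the long control one. Shared peaks had a median percentile of 78.5 in control culture 61 and 62.8 in K27M culture 61. The part of list length was not tested. With all 6 lists at equal length, 599 lay above (5.68%) and 378 below (3.59%). Promoter and distal peaks are given apart, and the difference between them was not tested. Of 11523 shared promoter peaks, 393 lay above (3.41%) and 231 below (2.00%), while of 7257 shared distal peaks 200 lay above (2.76%) and 268 below (3.69%). With lists of equal length, 435 promoter peaks lay above and 216 below, and distal peaks were even at 164 and 162. Among the 593 higher peaks 384 were also shared in lists of equal length and 248 kept the same complete order there, and of the 499 lower peaks 294 were shared and 173 kept it. Counted by gene, 476 of 14016 genes open in all 6 had every K27M promoter percentile above every control one (3.4%), and 264 below (1.88%). Once lists were of equal length, these were 587 (6.18%) and 276 (2.9%) of 9505. By limma none of the peaks named in what follows passed the threshold.

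**Figure D4:**
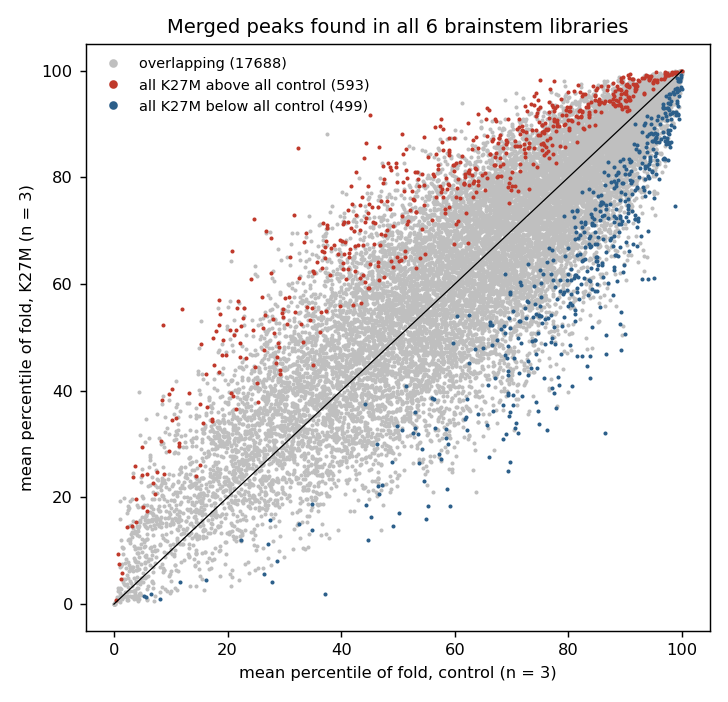
Mean percentile of fold in the 3 K27M (vertical) against the 3 control (horizontal) libraries for 18780 merged peaks found in all 6, with the line of equality. Red points are the 593 peaks with every K27M value above every control value, and blue points the 499 with every K27M value below.

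The largest difference upward in the deposited lists was at the promoter of Bmpr1b, a type I receptor for bone morphogenetic proteins (BMPs). This peak (chr3:141981273-141982366, in the gene at 444 bp from a start) lay at percentiles 83.4, 90.5 and 82.4 in K27M and 15.1, 27 and 54.9 in control. The means were 85.4 ± 4.44 and 32.3 ± 20.4 (SD, n = 3 each), and the difference was 53.1 points with a limma standard error of 16.4. All K27M values were high and the controls ranged widely. Bmpr1b has several starts, and taking the strongest peak at any of them gave 90.7, 90.5 and 82.4 against 76.4, 36.3 and 85.3, which overlap. In telencephalon the same peak averaged 73.0 in 4 K27M and 53.4 in the 2 control libraries that had it. At equal length the largest was at the promoter of Apc, a part of the complex that degrades beta-catenin, at percentiles 75.7, 78.5 and 70.3 in K27M and 15.8, 10.6 and 38.0 in control, a difference of 53.4 points.

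Elavl2, a neuronal RNA-binding protein, was also among the promoters with the largest differences on the K27M side. It lay at percentiles 58.9, 40.6 and 57.3 in K27M and 1.7, 5.0 and 19.2 in control. A peak inside Tnr (chr1:159593930-159595972), the gene of the matrix protein tenascin-R made by oligodendrocyte lineage cells, lay at percentiles 83.1, 52.4 and 63.0 against 15.4, 19.3 and 27.8. It also averaged 52.0 in K27M and 16.9 in control telencephalon. Further peaks of this side lay between genes, 21634 bp from the start of Kiz, a centrosomal protein, and 226542 bp from that of Cpne8, a calcium-dependent membrane-binding protein. Near Cpne8 the order was opposite in telencephalon, with means of 59.0 in K27M and 85.3 in control, with 2 control libraries, and this contrast was not tested on its own. At equal list length, neither the Bmpr1b peak nor those of Elavl2, Tnr, Kiz and Cpne8 were among the 40 largest non-overlapping differences upward.

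Lower in K27M by the widest margin was a peak 732603 bp from the start of Fam19a2, which encodes a secreted neural protein. It lay at percentiles 13.3, 30.3 and 52.5 in K27M and 88.0, 88.8 and 82.3 in control, a difference of -54.4 points (limma standard error 16.2). An intronic peak of Reep1, a protein that shapes the endoplasmic reticulum, lay at percentiles 50, 8.95 and 16.0 against 64.7, 81.3 and 61.9. Ilkap, a phosphatase of integrin-linked kinase signalling, lay at percentiles 56.2, 30.2 and 11.3 at its promoter against 75.6, 62.7 and 90.3. Insc, an adaptor that orients the spindle in asymmetric division, differed by -43.2 points at an intronic peak, and Ctif, a factor of nuclear cap-dependent translation, by -41.6. Near Lef1, a transcription factor of Wnt signalling, a peak at chr3:130950666-130951639, 159318 bp from its start, lay at percentiles 69.5, 13.9 and 43.6 against 90.8, 81.0 and 79.7. At all 6 of these peaks the K27M libraries were more spread than the control libraries. None of the 6 was among the 40 largest non-overlapping differences downward at equal list length.

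The sequences of 5 of the shared peaks named above are shown, as 200 bases without exons nearest the centre of the peak. They were read from the mm10 plus strand. Bmpr1b and Fam19a2 had the largest difference of each side, and the peak near Kiz came next on the K27M side. Elavl2 and Lef1, at places 5 and 6 of their sides, were picked by name. Capitals mark the letters searched on both strands. They are CAGCTG (an E-box read by factors such as Olig2), ACAAAG or its complement CTTTGT (the core of SOX sites), TGANTCA, and GGAATG or CATTCC (TEAD). The N of TGANTCA stands for any base, which is wider than the AP-1 site TGACTCA or TGAGTCA. The first 3 were from peaks higher in K27M, namely Bmpr1b (chr3:141981720-141981919), the peak near Kiz (chr2:146834130-146834329) and Elavl2 (chr4:91371330-91371529). The last 2 were lower in K27M, the peaks near Fam19a2 (chr10:123997488-123997687) and near Lef1 (chr3:130951053-130951252).
Bmpr1b: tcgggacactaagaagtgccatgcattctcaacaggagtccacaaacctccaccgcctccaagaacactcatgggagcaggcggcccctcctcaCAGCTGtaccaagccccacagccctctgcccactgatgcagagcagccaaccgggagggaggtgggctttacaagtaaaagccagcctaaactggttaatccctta
Kiz: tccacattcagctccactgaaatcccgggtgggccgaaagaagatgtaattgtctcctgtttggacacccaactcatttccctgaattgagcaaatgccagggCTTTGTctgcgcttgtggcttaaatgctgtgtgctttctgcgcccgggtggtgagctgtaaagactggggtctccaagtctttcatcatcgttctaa
Elavl2: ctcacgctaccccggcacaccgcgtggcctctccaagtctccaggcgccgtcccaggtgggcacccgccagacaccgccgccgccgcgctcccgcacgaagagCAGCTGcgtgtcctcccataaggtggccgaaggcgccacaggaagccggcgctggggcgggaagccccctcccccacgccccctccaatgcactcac
Fam19a2: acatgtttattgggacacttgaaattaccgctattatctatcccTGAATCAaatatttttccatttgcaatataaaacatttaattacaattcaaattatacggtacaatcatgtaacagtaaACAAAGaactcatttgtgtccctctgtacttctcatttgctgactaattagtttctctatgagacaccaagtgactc
Lef1: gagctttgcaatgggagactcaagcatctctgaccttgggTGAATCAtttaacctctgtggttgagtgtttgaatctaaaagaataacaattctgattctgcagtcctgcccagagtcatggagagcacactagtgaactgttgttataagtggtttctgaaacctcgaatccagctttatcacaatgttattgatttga

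Both promoter sequences of the K27M side, Bmpr1b and Elavl2, hold 1 CAGCTG. Both lower-side sequences shown hold 1 TGANTCA, each as TGAATCA, which is not the AP-1 site. The window read at the lower-side Reep1 peak, at place 2 and not shown, held none of the motifs. Sequences picked in this way support no difference between the sides. Over the central 200 bases of all peaks of a class, which describe the peaks and no binding, the shares were as follows. CAGCTG was in 12.5% of the shared promoter peaks higher in K27M, in 12.1% of those lower and in 11.9% of all shared promoter peaks. TGANTCA was in 9% of shared distal peaks higher in K27M, 13.2% of those lower and 9.08% of all. The SOX letters were in 31.5%, 28.6% and 24.6% of the same classes. GC content was 63.5% in higher, 61.2% in lower and 62.7% in all shared promoter peaks. The TEAD letters were in 11.5%, 7.52% and 10.97% of the shared distal classes, and a match to NFI or SMAD sites, also searched, was in at most 0.637% of any class.

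The pathway lists were read against those shares. Of the 222 listed genes open in all 6 libraries, 12 had every K27M promoter percentile above every control one (5.41%) and 10 below (4.505%), against 3.4% and 1.88% of all genes. At equal list length, 8 of 141 were above (5.67%) and 9 below (6.38%), against 6.18% and 2.9%. The lists were chosen with earlier results of these data known, so these shares describe the genes and support no theme.

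In the BMP and TGF-beta pathway (38 genes, 28 open in all 6) 2 genes lay above, with every K27M percentile over every control one, and 3 below. Among ligands, Bmp2 was open in 3 K27M libraries, at percentiles 83.5, 71.9 and 38.3, and in 1 control library, culture 61, at percentile 75.2. Bmp6 was open in 2 K27M libraries, at percentiles 62.0 and 51.8, and in 0 control libraries. Bmp4 was open in 2 K27M and 1 control libraries. Among receptors, Tgfbr2, the type II receptor of TGF-beta, lay at percentiles 67.1, 72.7 and 71.0 in K27M and 42.5, 61.4 and 58.8 in control. Bmpr2, the type II BMP receptor, went the other way, at percentiles 69.2, 62.3 and 67.5 against 83.8, 75.8 and 71.7. Smad3, the signal transducer of TGF-beta and activin receptors, had the largest downward shift of any shared peak in lists of equal length. Its promoter fold was 2.85, 3.31 and 3.15 in K27M and 4.01, 4.47 and 5.01 in control, and its percentiles were 50.3, 64.8 and 68.2 against 91.1, 97.7 and 96.7. The mean difference was -34.0 points in deposited lists and -61.8 in lists of equal length, where the limma adjusted p was 0.987. Among targets and inhibitors, Id2, a BMP-induced repressor of differentiation factors, lay at percentiles 52.0, 26.8 and 20.0 against 59.1, 54.1 and 56.6. Grem1, a secreted BMP antagonist, lay at percentiles 67.1, 54.0 and 82.6 against 30.3, 26.9 and 43.0. For all listed genes of the pathway open in all 6 the median difference was 1.49 points, against 0.872 for all genes. At equal length 13 genes of the pathway were open in all 6, of which 0 lay above and 2 below, Smad3 and Id2, and the median difference was -0.43 points. Tgfbr2 and Grem1 were not open in all 6 there.

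Of 49 Wnt pathway genes, 28 were open in all 6, with 3 above and 1 below. The receptor Fzd7 lay at percentiles 70.6, 69.8 and 79.6 against 63.3, 56.6 and 55.1, the co-receptor Lrp6 at percentiles 38.1, 20.0 and 14.9 against 4.5, 8.3 and 13.5, and Lgr5, a receptor of R-spondins, at percentiles 92.4, 84.6 and 97.4 against 81.9, 83.2 and 81.5. Gsk3b, the kinase that marks beta-catenin for destruction, lay below in K27M, at percentiles 84.9, 83.5 and 78.0 against 90.7, 92.0 and 86.8. These shifts were of 7.7 to 15.6 points in size. In the lists of equal length, the beta-catenin gene Ctnnb1, Dvl1 and Tcf7l2, which act downstream of the receptors, were each open in 3 K27M and 1 control libraries, and the receptor Fzd3 in 0 and 2. Of the 14 Wnt genes open in all 6 at equal length, 0 lay above and 1 below, the receptor Fzd1, so the order of Fzd7, Lrp6 and Lgr5 was not found there. Tcf7, another nuclear partner of beta-catenin, was open in 3 K27M and 1 control deposited lists, at percentiles 0.9, 13.1 and 5.9 in K27M and 3.3 in control culture 61. In the Notch pathway (24 genes, 16 open in all 6) only the coactivator Maml2 kept the genotypes apart, at percentiles 30.0, 23.1 and 65.6 against 13.2, 16.7 and 9.9. At equal length 11 Notch genes were open in all 6 and 0 lay above or below, so this order was not found there.

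Chromatin and cell cycle genes were nearly all open. Of 12 PRC2 genes 10, of 7 genes of H3.3 and its chaperones 7, and of 17 cell cycle genes 15 were open in all 6. Atrx, the remodeller that deposits H3.3 with Daxx, lay at percentiles 88.4, 87.5 and 86.3 in K27M and 41.4, 67.9 and 67.8 in control. Its means were 87.4 ± 1.05 and 59.0 ± 15.3 (SD, n = 3 each). Atrx lies on chromosome X, and the lowest value was in control culture 51, the library without chromosome Y peaks. The part of sex in this difference was not tested. At equal length Atrx was open in 3 K27M and 2 control lists, and 0 of the 6 genes of H3.3 and its chaperones open in all 6 lay above. Daxx overlapped between genotypes. Trp53, the tumour suppressor p53, lay at percentiles 55.2, 23.1 and 26.6 against 14.9, 1.8 and 15.9. In the deposited lists Trp53 alone of the 15 cell cycle genes lay above. With lists of equal length, 6.18% of all genes lay above. Of 13 cell cycle genes open in all 6 there, Trp53 and 3 more lay above. They were Ccnd3 and Ccne1, cyclins of the G1 phase, and Cdkn2b, an inhibitor of the kinases that D cyclins activate. Ccne1 lay there at percentiles 5.7, 5.9 and 12.2 against 2.2, 2.3 and 3.8, and in the deposited lists it overlapped. No PRC2 gene separated in either set of lists.

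Genes of cholesterol synthesis, a pathway that myelin-forming cells depend on, were open in all 6 for 21 of 22. Hmgcs1, an early enzyme of the pathway, was tightly grouped, at percentiles 92.0, 92.9 and 92.0 in K27M and 84.8, 83.1 and 82.8 in control. The difference was 8.75 points. Insig1, which holds the pathway's regulator back when sterols are plentiful, lay at percentiles 88.2, 82.2 and 88.0 against 75.3, 75.3 and 80.5. Sqle, a later enzyme, lay below in K27M, at percentiles 90.3, 81.0 and 90.6 against 92.0, 97.0 and 97.3. All 3 kept their order in lists of equal length. The median over the list was 0.431 points.

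Few genes of the other lists separated. Of the 15 OPC genes open in all 6, Sox6, which keeps OPCs immature, alone separated, at percentiles 86.2, 85.3 and 73.6 in K27M and 92.8, 93.3 and 91.5 in control. Sox10 was open in all 6 deposited lists at low percentiles, 0.2 to 15.8, and in 1 K27M and 3 control lists of equal length. Of 15 myelin genes 4 were open in all 6, among them Mbp and Cnp, and none separated. Among 53 semaphorin, plexin and Eph-ephrin genes, which guide axons and migrating cells, the receptors Plxnb1 and Ephb2 lay above and none below in the deposited lists, while at equal length 0 lay above and 2 below, Sema6d and Epha10. Ephb2 lay at percentiles 47.4, 42.5 and 43.4 against 29.6, 8.6 and 36.4. Irx2 alone of 6 Iroquois genes lay below, at percentiles 60.6, 36.6 and 41.1 against 65.3, 69.9 and 72.4. Of 12 other brain patterning genes open in all 6, 2 lay below, among them Emx1, a forebrain homeobox gene, at percentiles 7.1, 22.7 and 14.2 against 24.4, 63.7 and 59.3. At equal length 4 of that list were open in all 6, and 0 lay above or below. The LIM homeobox genes had 2 open in all 6 and neither separated, and Lhx9 was open in 1 K27M and 3 control libraries. No integrin gene of 12 open in all 6, and no astrocyte, microglial or neuronal marker, separated in the deposited lists. At equal length 1 of 7 integrin genes lay above and 1 of 2 astrocyte markers below. Of 3 Iroquois genes there, 1 lay above and 1 below. The shares of all genes were 6.18% above and 2.9% below.

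**Figure D5:**
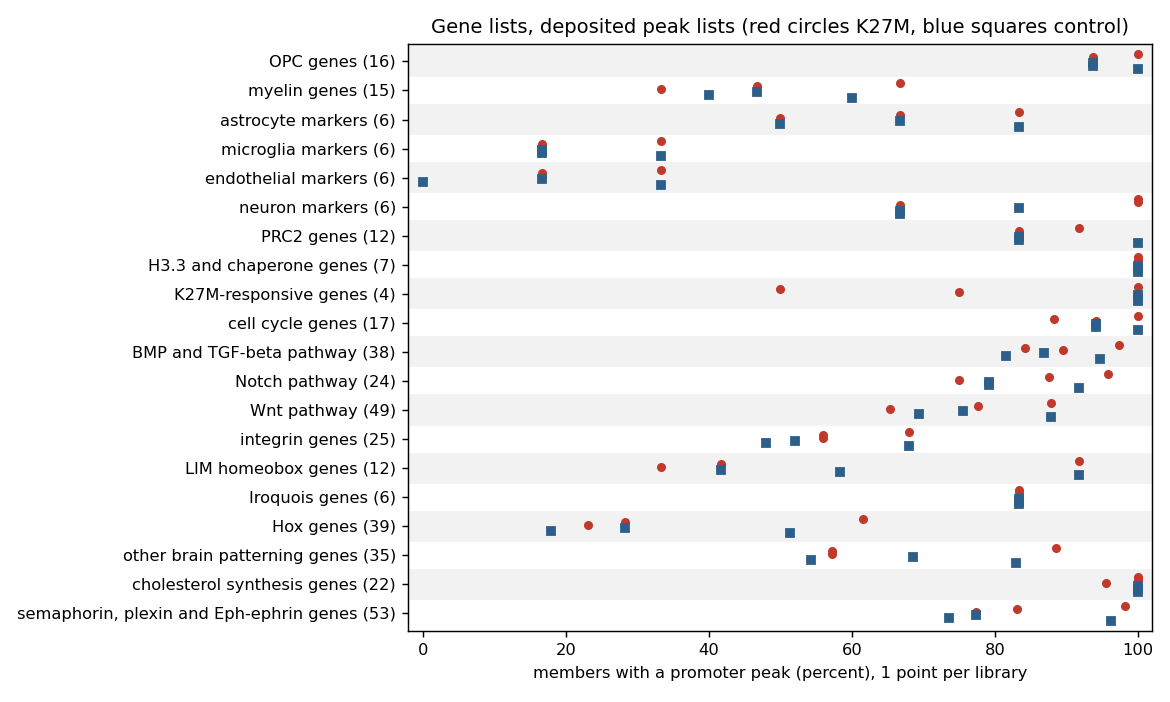
Percent of the genes of each list with a promoter peak, 1 point per library, with K27M as red circles and control as blue squares and list sizes in parentheses. The genotypes overlap in most lists, and in most of them culture 41 of K27M and culture 61 of control, the longest peak lists, lie farthest right.

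Pgk1, a glycolytic enzyme on chromosome X, was picked after its values were seen. Its promoter fold was 5.31, 4.54 and 5.28 in control, at percentiles 99.7, 98.1 and 98.2, and 3.13, 3.41 and 3.89 in K27M, at percentiles 61.7, 69.8 and 92.4. The K27M telencephalon libraries lay at percentiles 52.1, 58.6, 64.1 and 48.3 and the control ones at percentiles 94.6, 96.3 and 56.9. The 3 brainstem controls were the highest of all, and 1 telencephalon control lay within the range of the K27M libraries.

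More distal peaks separated the genotypes on the control side than on the K27M side in the deposited lists. Of 52955 distal merged peaks, 38 were in every K27M and no control library (0.0718%) and 157 in every control and no K27M library (0.296%). Once lists were of equal length, however, the numbers were 75 (0.618% of 12144) and 62 (0.511%), so the larger number on the control side was not seen there. Without control culture 61 the K27M side held 659 distal peaks, and without K27M culture 41 the control side held 762. The matched cultures 59 and 61 alone, without the long K27M list and with the long control one, gave 110 and 2431. Of the deposited-list peaks, 13 of the 38 and 72 of the 157 lay inside protein-coding genes. The median distance to the nearest start was 101778 bp on the K27M side and 32735 bp on the control side. With lists of equal length it was 39780 and 24035 bp.

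The strongest distal peak of the K27M side lay at chr9:41541263-41541900, 379885 bp from the start of Ubash3b, a phosphatase that dampens receptor tyrosine kinase signalling. Its fold was 3.46, 3.801 and 3.19. The following ones lay near Tent4a, a poly(A) polymerase, Cracr2a, a calcium sensor, Epha4, an ephrin receptor, Gxylt1, a glycosyltransferase, and Sox5, a SoxD factor of OPCs. The peak near Epha4 (chr1:77072632-77073756) had folds of 3.33, 3.19 and 2.76, and the one near Sox5 (chr6:143672992-143674439, 273372 bp from its start) 3.05, 3.52 and 2.66. Further down, chosen after the values were seen, an intronic peak of Sox6 and one of Notch1, the receptor, were on this side with folds of 2.38 ± 0.25 and 2.01 ± 0.10 (SD, n = 3).

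The control side began with a peak 272596 bp from the start of Cox7c, a subunit of cytochrome c oxidase (chr13:85773265-85774236), with folds of 3.93, 3.36 and 4.28. It was followed by peaks near C1galt1c1, a chaperone of O-glycosylation on chromosome X, near Epha4 again (chr1:76676605-76677486, 700561 bp from its start), near Pld1, a phospholipase, near Zfp386, and near Rbfox1, a neuronal splicing factor. The genotypes thus separated in opposite directions at 2 regions nearest Epha4. Near Myc, Ccnd1, Cdk6, Erbb3 and Irx5, picked after the values were seen for their roles in proliferation, glial growth factor response and patterning, single control-side peaks had mean folds of 2.89, 2.70, 2.78, 2.91 and 2.94. The sequences of 1 distal peak of each side show what such regions look like, the K27M one near Tent4a (chr13:69263776-69263975) with 47.5% G and C and 1 CATTCC, and the control one near Cox7c (chr13:85773651-85773850) with 29.5% and 1 ACAAAG.
Tent4a: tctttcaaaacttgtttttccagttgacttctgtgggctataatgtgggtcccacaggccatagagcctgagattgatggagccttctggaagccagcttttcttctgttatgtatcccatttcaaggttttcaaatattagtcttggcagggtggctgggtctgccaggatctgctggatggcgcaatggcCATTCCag
Cox7c: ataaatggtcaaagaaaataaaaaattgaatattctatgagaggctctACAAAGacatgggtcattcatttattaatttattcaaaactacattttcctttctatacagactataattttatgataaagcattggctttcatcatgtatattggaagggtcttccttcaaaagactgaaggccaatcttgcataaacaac

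The 2 sides were close in base content. Mean GC content was 45.6% in the K27M-side peaks, 46.1% in the control-side peaks and 46.7% in all distal peaks. Repeat-masked bases made up 13.1%, 14.6% and 16.3%. The SOX letters were in 10 of 37 K27M-side peaks that could be read, in 30 of 157 control-side peaks and in 11086 of 52879 distal peaks of all kinds.

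The separating peaks were also looked up in telencephalon. There 22 of the 38 K27M-side distal peaks were called in a larger share of K27M than of control libraries and 11 in a smaller share. Of the 157 control-side peaks, 99 were called in a larger share of K27M libraries and 47 in a smaller one, the reverse of brainstem. With lists of equal length these numbers were 29 and 23 of 62 control-side peaks, a more even split. On the K27M side they were 46 and 21 of 75. The deposited telencephalon lists also differed in length, and the part of this in the reversal was not tested. Of the 38 K27M-side distal peaks, 1 was also in all 4 K27M and none of the 3 control telencephalon libraries. It lay in an intron of Fat4 (chr3:38907735-38908505), a giant cadherin of planar polarity and Hippo signalling, with folds of 3.28, 2.98 and 2.78 in brainstem. None of the 157 control-side peaks repeated. At equal list length, 2 of 75 K27M-side peaks repeated, the stronger at chr7:124974956-124976247, 469074 bp from the start of Kdm8. Of the promoters, the Prm1, Prm2 and Gm46563 group, which shares 1 peak, repeated and no other of the 14. In a limma fit of all 13 libraries the interaction of genotype and region was called at 0 of 13075 peaks, with 292 at an unadjusted p under 0.05.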

How the data were processed

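ATAC-seq libraries were grouped by the genotype and tissue in their titles, 3 K27M and 3 Control of brainstem. Per the submitters' processing notes the tools were bcl2fastq 2.20.0.422, cutadapt 3.4, Trim Galore 0.6.7, BWA 0.7.17-r1188 (mm10), MACS2 2.2.7.1 and deepTools 3.5.4, and the study names an nf-core pipeline. The authors called broad peaks in each library separately, and each deposited list gives a fold enrichment over local background for every peak. The authors also deposited a −log10 p-value per peak, used here only to order peaks and apply thresholds. The deposited q-values were not used. Depth is unknown, so precision rests on 3 libraries a side. The study tested promoter reads with csaw and edgeR, which needs counts that were not used here.

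Promoters were taken from 2 kb before to 1 kb after any GENCODE M21 start. Peaks from the 6 brainstem lists were joined where they shared 1 bp or more. Complete separation meant a peak in all libraries of one genotype and in none of the other. Percentiles of fold were compared with limma 3.58.1 (R 4.3.3) with Benjamini-Hochberg adjustment at 0.05, and totals with an exact permutation test over 20 arrangements. Python 3.11.15, numpy 2.4.6, scipy 1.17.1, pandas 2.3.3 and matplotlib 3.10.9 were used, and scripts were tested on simulated data. Sequences and gene models were read from GRCm38 (mm10).

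Named were up to 12 protein-coding genes a side (no Gm or Rik names) that separated in the deposited lists, 6 more a side in lists of equal length, 6 distal peaks a side and 6 shared peaks a side. Separating peaks were ordered by mean percentile and shared peaks by the difference of means. H3f3a was also named. Genes outside this rule come from the 20 gene lists (396 genes) or are marked as picked after their values were seen. The members and lists were chosen with earlier results of these data known. Cultures 59 and 61 exist in both genotypes, and per the study's methods matched cultures were assayed together. Deviations from the group means correlated at 0.0689 within culture 59 and -0.105 within culture 61, against -0.147 to 0.166 for unmatched libraries. Alternatives were other list lengths, peak thresholds, overlaps, promoter windows, annotation, merging, scales, a culture block and leaving out each library. Counts of non-overlapping shared peaks and genes were added after seeing the data. A few items that the rule names are not reported here.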

Additional observations from a re-analysis of the deposited data

Results flagged for a closer look

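One distal peak near Vstm2a, a secreted protein gene, stood out because the regions went opposite ways in lists of equal length. It lies at chr11:16176315-16176789, 81172 bp from the nearest start. In brainstem it was in all 3 control lists, at percentiles 59.2, 78.6 and 66.9 (mean 68.2), and in none of the K27M lists. In telencephalon it was in all 4 K27M and none of the 3 control lists. The difference between regions was not tested.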

How the results depend on the processing

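Genes whose promoter separated the genotypes numbered 14 on the K27M side and 12 on the control side. They became 59 and 31 in lists of equal length, 57 and 20 at the length of the shortest brainstem list, 6 and 6 with peaks of p at most 1e-06, and 7 and 2 for protein-coding genes. Distal peaks, 38 and 157, became 75 and 62 at equal length, and 9 and 10 at that p. At the shortest brainstem length the K27M side held 124. Of shared peaks, 593 above and 499 below became 903 and 822 by rank among shared peaks and 289 and 193 at that p. The number above was 905 on log2 fold, where limma also called 1 peak lower in K27M, on an unplaced scaffold. Leaving out each library in turn gave 18 to 209 and 16 to 119 promoters, 54 to 659 and 182 to 916 distal peaks, and 839 to 2653 and 803 to 2652 shared peaks. The difference in open promoters per library ran from -893.5 to 1082.67, that in distal peaks from -6314.67 to 4020.67 and that in percent distal from -4.67 to 1.86. The replicate block, the matched cultures 59 and 61 alone, gave 27 and 383 promoters, 110 and 2431 distal peaks, 1327 and 4653 shared peaks and a difference of -1352 promoters per library, and limma with a culture block called 0 peaks with 665 (fixed) or 206 (random) at an unadjusted p under 0.05. Fewer libraries have to match when one is left out or the block is used, which raises such counts, and the cause of the other shifts was not tested. The matched cultures also leave out the long K27M list and keep the long control one. Requiring 50% of the peak reversed Nes, to -1 library. No other value of a named gene reversed: 241 stayed within the spread and 121 moved, and 121 values of named shared peaks stayed within it. The overlap of 50%, a 500 bp window and merging over 13 libraries left the counts of separation within 1.5 times. Depth is unknown, which limits what a missing peak shows.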
